A study of Mus musculus with 22 samples.

Results

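The Dlk1-Dio3 locus on mouse chromosome 12 encodes one of the largest miRNA clusters known in mammals, and its miRNAs are the subject here. All rows of the NanoString nCounter mouse miRNA panel that carry the name of a cluster member were taken, every arm included, which gave 57 rows from 47 miRNA numbers. The panel lists 626 probes, of which all but 60 are for mouse miRNAs. The rule for the rows used their names and no measured value. In the nCounter assay miRNAs are tagged by ligation, bound to barcoded probes and counted barcode by barcode, with no amplification, and 22 mouse samples were measured.

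The study asked which miRNAs change in fallopian tube (FT) cancer models with inactivated tumor suppressor genes, Brca1 or Brca2 among them, and whether such changes reach the plasma. Uninduced control tubes (CT1 to CT5) carried floxed alleles that had not been recombined. CT1 and CT3 were Brca1 fl/fl, CT2 was Brca1 fl/+, CT4 was Brca2 fl/fl and CT5 was Brca2 fl/+. In the induced samples doxycycline had recombined these alleles. Among the induced tubes, FT1, FT3 and FT5 were Brca2 -/+, FT2 was Brca1 -/- and FT4 was Brca2 -/-. Among the metastatic tumors, M1 and M3 were Brca2 -/-, M4 was Brca2 -/+, and M2 and M6 were Brca1 -/+. All mice carried further engineered alleles, which also differed between samples. M6 was an ovarian metastasis and the other M samples were peritoneal metastases. Plasma of tumor-bearing mice (TS1 to TS4, called serum in one label field) was drawn from the same mice as FT2 to FT5, and control plasma (CS2 to CS4) from the same mice as CT2 to CT4. Recombination was driven by a doxycycline-inducible Pax8-Cre, and in the oviduct Pax8 marks the secretory cells of the epithelium, so other cells of a tube keep unrecombined alleles. Age and strain are not given in the sources used here. Some M samples shared a mouse with an FT sample, and which ones is not stated, so p-values measure the spread between samples only.

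In this locus the protein-coding genes Dlk1, Rtl1 and Dio3 are expressed from the paternal chromosome. The long noncoding RNAs Meg3, Rian and Mirg, a transcript antisense to Rtl1, and the miRNAs processed from them are expressed from the maternal chromosome. The cluster is best known from embryo, placenta and brain, and most of its miRNAs are low in adult tissues.

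In the RefSeq annotation of GRCm38.p6, 45 hairpins of these miRNAs lay on the plus strand within 180.103 kb (chr12:109563692-109743795), between Dlk1 (chr12:109452485-109463336) and Dio3 (chr12:110279230-110281097). A single hairpin, that of miR-770, lay within Meg3 (chr12:109540996-109571729). A further 10 hairpins, among them those of miR-127, miR-136, miR-432 and miR-540, lay within Rtl1 (chr12:109564900-109604418) and antisense to it, and 2 lay within Rian (chr12:109603945-109661716). The other 32, from miR-379 to miR-410, formed the densest stretch (chr12:109709060-109743795), and 9 of these lay within the annotated Mirg (chr12:109734981-109749458). By name, 22 rows matched a mature sequence and 34 a hairpin only, because the older panel names leave out the arm, and miR-544 matched neither.

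The sequences below, from RefSeq (GRCm38.p6), are those of the members on which the results turn, 5′ to 3′, with the seed (bases 2 to 8, the part that pairs with targets) in capitals. Where the panel name gives no arm, the arms listed in RefSeq are shown, except that miR-376b is given by its 5p arm alone for comparison. The first 6 belong to the members whose mean stood above background in tissue or plasma.
miR-136-5p: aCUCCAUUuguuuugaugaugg
miR-136-3p: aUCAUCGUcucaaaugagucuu
miR-382-5p: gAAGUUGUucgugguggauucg
miR-382-3p: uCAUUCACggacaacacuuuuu
miR-376a-5p: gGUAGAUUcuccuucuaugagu
miR-376a-3p: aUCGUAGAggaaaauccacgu

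The next set belongs to members that were high in single induced tissue samples. miR-376c-5p is shown with its neighbour miR-376b-5p, since both carry the same seed and differ at 1 of 22 positions. A probe for one of these arms could also bind the other. The RefSeq listing used here gives only the 5p arm of miR-376c, and the panel does not name the arm that its probe measures.
miR-127-5p: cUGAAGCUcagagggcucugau
miR-127-3p: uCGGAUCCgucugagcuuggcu
miR-329-5p: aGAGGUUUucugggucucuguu
miR-329-3p: aACACACCcagcuaaccuuuuu
miR-134-5p: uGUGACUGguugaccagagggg
miR-134-3p: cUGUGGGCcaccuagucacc
miR-376c-5p: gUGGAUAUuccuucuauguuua
miR-376b-5p: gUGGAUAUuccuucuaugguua

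The last are miR-540-3p, the member that passed the test between tumors and control tubes, and miR-495 (both arms) and miR-432. Of these the study lists miR-495-3p and miR-432-5p among the miRNAs of the induced tube.
miR-540-3p: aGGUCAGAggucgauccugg
miR-495-5p: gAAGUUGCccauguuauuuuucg
miR-495-3p: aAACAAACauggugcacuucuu
miR-432: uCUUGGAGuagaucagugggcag

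Among the 86 mature sequences of the cluster in RefSeq, 4 seeds were shared by 2 sequences each. These were the pair above, miR-379-3p with miR-411-3p, miR-453 with miR-496a-5p, and miR-410-5p with miR-494-5p. Other close pairs were miR-379-3p and miR-411-3p (2 of 22 positions differ), miR-376a-3p and miR-376b-3p (3 of 21), miR-300-3p and miR-381-3p (3 of 22) and miR-495-3p and miR-543-3p (4 of 22). Where the probes measure these arms, counts of such pairs may share signal, and their values are uncertain to that extent.

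Total miRNA counts ranged from 70164 to 598321 in tissue (100 ng of RNA) and from 18350 to 269005 in plasma (10 ng). A background level was set in each sample at the mean plus 2 SD of its 8 negative hybridization controls, barcodes without a target, and it lay between 18.3 and 67.7 counts. A miRNA was called above background in tissue or plasma where its log2 ratio of count to this level, averaged over all samples of that kind, was above 0.

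The cluster was close to silent by this measure. In tissue, 2 of 57 members (3.51%) were above background, against 25.6% of all mouse miRNAs on the panel. These were miR-136, with a mean log2 ratio to the level of 0.63, and miR-382, with 0.59. In all, 31 members, these included, exceeded the level in at least 1 of the 15 tissue samples and 26 in none. In plasma 2 of 57 members were above background, against 17.0% of all miRNAs, namely miR-376a (0.57) and again miR-136 (0.19), and 52 members exceeded the level in no plasma sample. How many of all miRNAs exceeded the level in any sample was not counted for tissue or plasma. In single samples the share of all miRNAs above it was 16.6% (CT5) to 36.7% (M2) in tissue. In plasma it was 9.19% (CS2) to 22.6% (TS2). The study judged plasma by its negative ligation controls instead. With the mean plus 2 SD of those as the level, 6 members were above background in tissue and 3 in plasma. The share of all miRNAs above background by that level was not counted. The median log2 ratio to the level was −1.25 over the members and −1.13 over all miRNAs in tissue, and −2.23 against −1.99 in plasma. Together the 57 members took 0.537% of the miRNA counts in tissue and 0.480% in plasma. In bulk samples fewer cells of a type and less RNA per cell cannot be told apart, which holds for all values below.

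**Figure D1:**
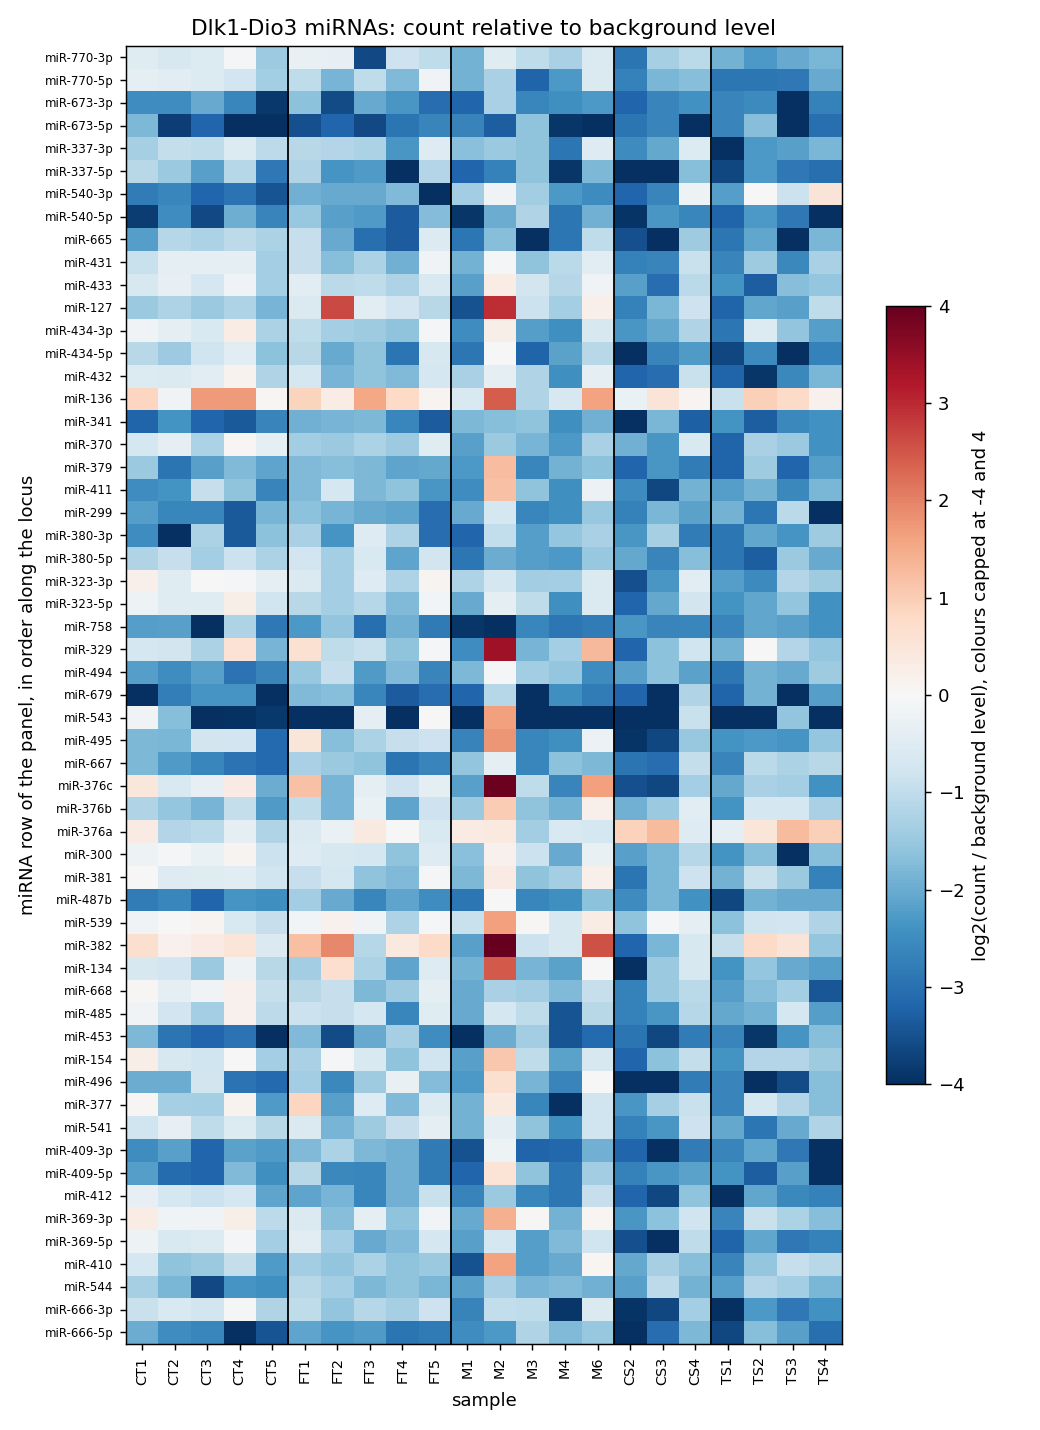
Each row is 1 of the 57 cluster rows of the panel in order along the locus (miR-544 and both miR-666 arms, without a named hairpin, at the bottom), and each column is 1 of the 22 samples. Colour gives log2 of the count over the background level of that sample, red above and blue below it. Most cells are blue, miR-136 and miR-382 are red in many tissue samples, and M2 holds the largest number of red cells, 25 of 57.

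By segment, the members that exceeded the level in any tissue sample were 0 of 2 for Meg3, 6 of 14 for the stretch antisense to Rtl1, 1 of 2 for Rian and 24 of 39 for the miR-379 to miR-410 stretch. In plasma they were 0, 2, 0 and 3. The 26 members that never exceeded it in tissue included both arms of miR-337, miR-380, miR-540, miR-666, miR-673 and miR-770. Where both arms of a hairpin were on the panel, they could differ. The 3p arm of miR-369 exceeded the level in 5 tissue samples and the 5p arm in 0, and for miR-323 the numbers were 3 and 1. For miR-434 the 3p arm did so in 2 samples and the 5p arm in 1. For miR-409 it was the 5p arm that did so, in 1 sample, and the 3p arm in 0.

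miR-136 lies antisense to Rtl1, whose mRNA it can pair with in full. Its counts were 50, 62, 119, 100 and 46 in CT1 to CT5, 64, 44, 71, 53 and 54 in FT1 to FT5, and 29, 105, 8, 28 and 105 in M1, M2, M3, M4 and M6. It exceeded the level of the sample in 4 of 5 CT, 5 of 5 FT and 2 of 5 M samples, and the 3 groups overlapped. It was the most widely detected member in tissue. In normalized counts, scaled in each sample to its 100 most abundant miRNAs, miR-136 was at 79.0 ± 33.2 (SD, n = 5) in CT. It was at 83.0 ± 55.8 (SD, n = 5) in FT and at 67.3 ± 27.8 (SD, n = 5) in M.

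miR-382, whose hairpin lies just upstream of the annotated Mirg, was detected almost as widely but far less evenly. Its counts were 43, 76, 46, 43 and 29 in CT1 to CT5, 79 in FT1, 11 in FT3, 40 in FT4 and 86 in FT5, and 10, 1108, 10, 28 and 203 in M1, M2, M3, M4 and M6. M2 stood far above every other sample, at 56.1 times its background level, and M6 and FT2 came next, at 5.90 and 3.77 times theirs. In M1, M3 and M4 miR-382 was below the level, so M held both the highest and the lowest counts.

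Several other members were high in the same samples. miR-127, also antisense to Rtl1 and known to direct cleavage of its mRNA, had 10, 29, 13, 13 and 12 counts in CT1 to CT5, 23, 226, 18, 18 and 23 in FT1 to FT5, and 4, 152, 10, 17 and 40 in M1, M2, M3, M4 and M6. It exceeded the level in FT2, M2 and M6 and in 0 of 5 CT samples. miR-134, known for its action on Limk1 in neuronal dendrites, had 18, 40, 13, 27 and 20 counts in CT1 to CT5, 13, 58, 10, 7 and 35 in FT1 to FT5, and 12, 108, 5, 10 and 35 in M1, M2, M3, M4 and M6. It exceeded the level in the same 3 samples and in no other tissue sample.

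miR-376c and miR-329, whose hairpins both lie upstream of the annotated Mirg, were high in M2 and M6 but not in FT2. miR-376c had 38, 44, 29, 39 and 11 counts in CT1 to CT5, 77, 10, 19, 17 and 38 in FT1 to FT5, and 10, 301, 9, 7 and 108 in M1, M2, M3, M4 and M6. miR-329, induced by activity in neurons, had 17, 41, 15, 46 and 12 counts in CT1 to CT5, 52, 18, 13, 10 and 47 in FT1 to FT5, and 8, 206, 5, 17 and 84 in M1, M2, M3, M4 and M6. For both miRNAs M2 and M6 were the highest of all 15 tissue samples, while M1, M3 and M4 were below the level. FT1 followed them for both.

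**Figure D2:**
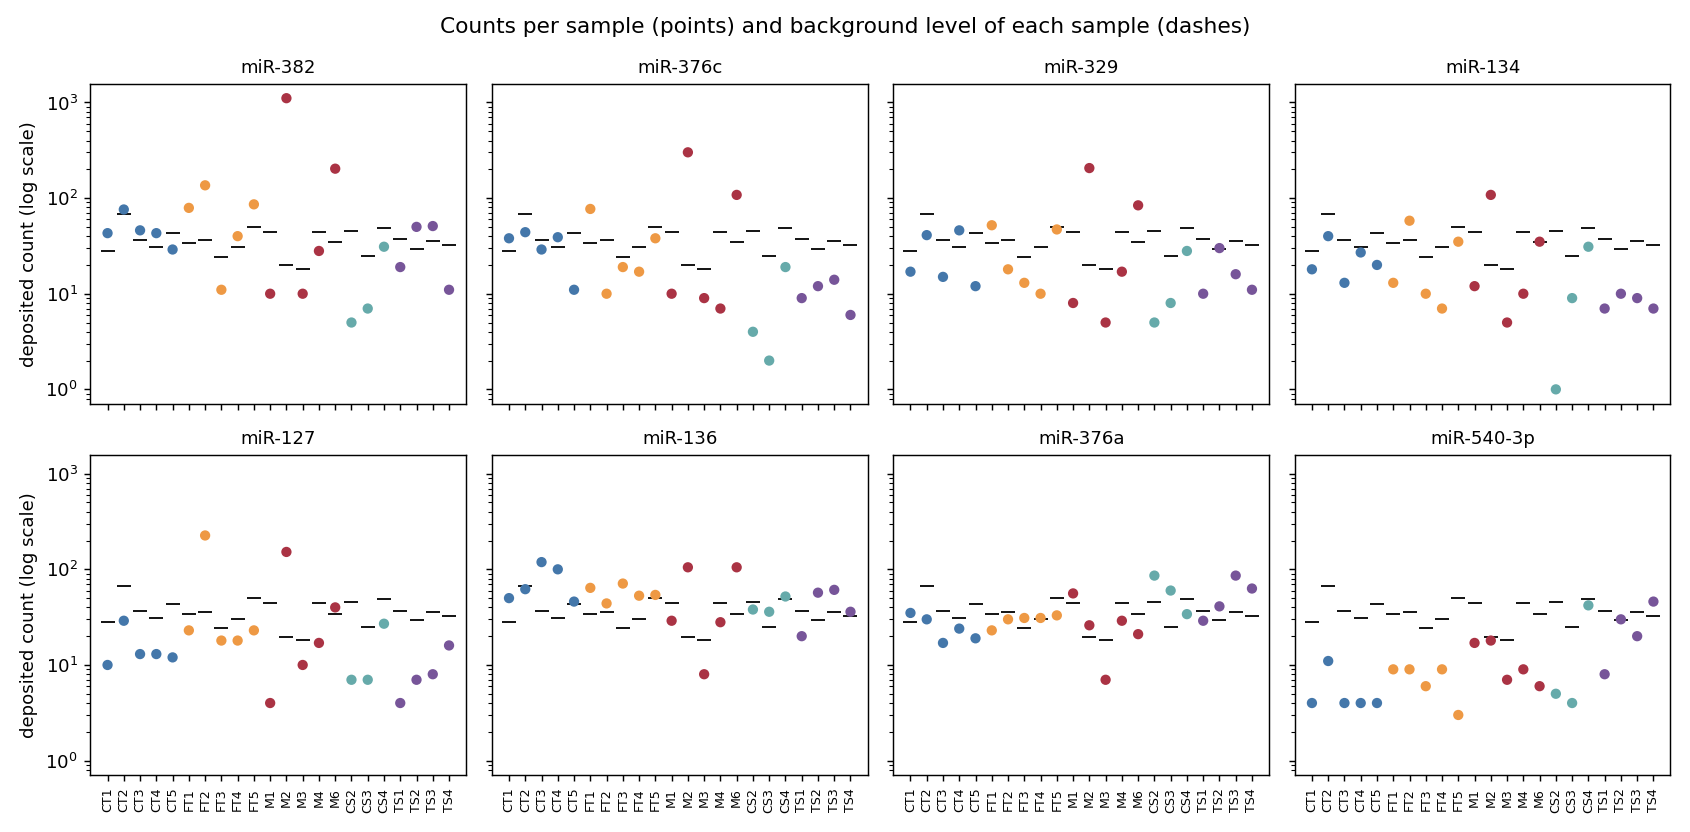
Deposited counts (log axis) of 8 cluster members in each of the 22 samples, with a dash at the background level of each sample. For miR-382, miR-376c, miR-329 and miR-134 the M2 point is the highest (1108, 301, 206 and 108 counts), for miR-127 it is FT2 (226), and miR-540-3p lies below the dash in all 15 tissue samples.

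Of all 855 pairs of a member and a tissue sample, 90 (10.5%) exceeded the level and 17 (1.99%) exceeded 3 times the level. These 17 were 10 in M2, 3 in M6 (miR-382, miR-376c and miR-136), 2 in FT2 (miR-127 and miR-382) and miR-136 in CT3 and in CT4. Of the 399 pairs in plasma, 15 (3.76%) exceeded the level, 2 exceeded 2 times the level and 0 exceeded 3 times. Over all miRNAs, the share above 3 times the level was 9.89% (M4) to 21.2% (M2) in single tissue samples. In single plasma samples it was 4.06% (CS2, CS3) to 13.4% (TS4). From the sample table of the study, M2, M6 and FT2 were also the 3 induced tissue samples with a Brca1 rather than a Brca2 allele. This was seen after the values were known, the labels do not give the alleles, and it was not tested.

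M2 was the sample in which the cluster was most visible. There 25 of 57 members (43.9%) exceeded the level, against 208 of all miRNAs (36.7%), and in no other sample was the share of members above that of all miRNAs. Members above the level numbered 10, 2, 4, 14 and 1 in CT1 to CT5, 6, 5, 2, 3 and 4 in FT1 to FT5, and 1, 2, 0 and 11 in M1, M3, M4 and M6. M6 was next among the tumors, with 19.3% of members against 31.6% of all miRNAs. Of the 25 members in M2, 20 belonged to the miR-379 to miR-410 stretch and 5 to the stretch antisense to Rtl1, and 11 had a higher count in M2 than in any other tissue sample. Beyond those already given, M2 held 67 counts of miR-495, 62 of miR-543, 61 of miR-539, 60 of miR-410, 53 of miR-369-3p, 46 of miR-379, 44 of miR-411, 42 of miR-154 and 40 of miR-376b. miR-379, the first hairpin of its stretch, had 12 counts or fewer in every other tissue sample. At the same time 10 members (17.5%) exceeded 3 times the level in M2, against 21.2% of all miRNAs.

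M2 had one of the lowest background levels (19.7 counts, with 18.3 in M3), on which its number of members above the level depends. After normalization, M2 held the highest value in tissue of 8 members (14.0%), against 2.83% of all miRNAs. CT5 and FT2 held the highest value of more members, 16 (28.1%, against 20.3% of all miRNAs) and 13 (22.8%, against 17.0%). Markers of several cell types also differed between these samples. The summed normalized counts of miR-199a-3p, miR-199a-5p and miR-214 (3 of the 4 listed are on the panel, all 3 above the level in some M sample) were 13654 in M2, 6145 in M6 and 5017 in M3, the highest of all tissue samples, against 404 in M4 and 1185 in M1, from 1907 to 3526 in CT and from 439 to 3260 in FT. M3 had 2 members above the level, and the sum in FT2 was 884. The endothelial miR-126 arms summed to 55041 in FT2, the highest of all tissue samples, and to 18003 in M2 and 7887 in M6, against 4224 to 6683 in CT. Leukocyte miRNAs (5 of 5 on the panel) summed to 2723 in M2, 1870 in M6 and 1139 in FT2, against 593 to 1164 in CT, and were highest in M3 (6301). Epithelial miRNAs (miR-141, miR-429 and the miR-200 a, b and c forms, 5 of 5 on the panel) summed to 2235 in M2, 8891 in M6 and 18151 in FT2, and ranged from 9285 to 11038 in CT. Smooth muscle miRNAs (5 of 5 on the panel) summed to 1036 in M2, 626 in M6 and 4823 in FT2, against 4713 to 13280 in CT, and ciliated cell miRNAs were below the level in every M sample (0 of 5). Erythrocyte miRNAs (4 of 4 on the panel) summed to 11748 in M2, 9032 in M6 and 14358 in M3, against 2881 to 4771 in CT. They summed to 6808 in M1 and 2233 in M4, and were lowest of all tissue samples in FT2 (1623). Liver miRNAs (3 of 3 on the panel) were above every CT sample in M2, M6 and FT2, but highest in FT3 (1342) and M4 (587). The part of these marker miRNAs in the values of the cluster was not tested.

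**Figure D3:**
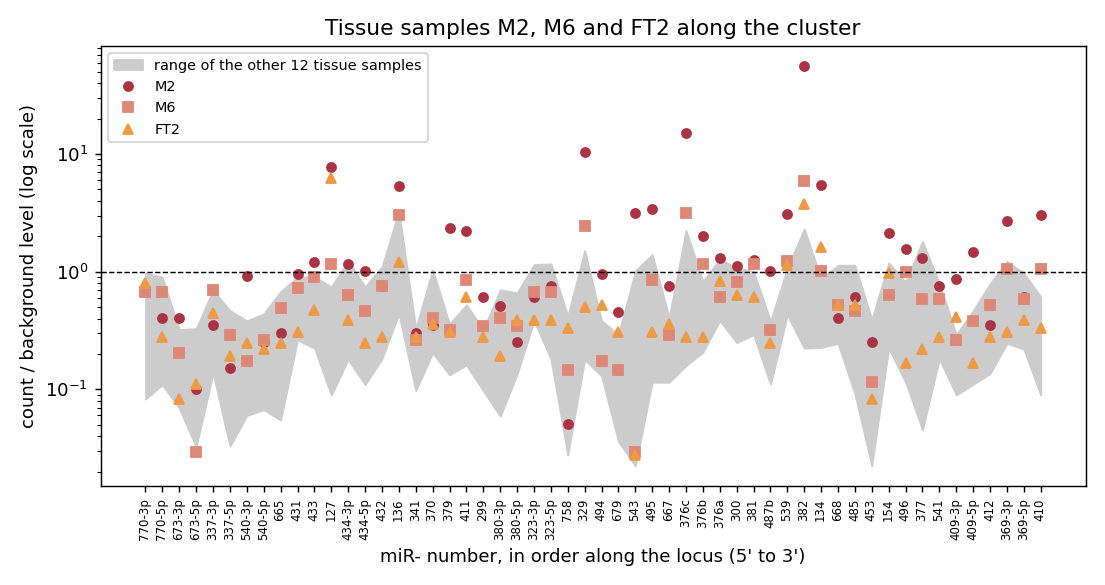
Count over background level (log axis) for the members with a named hairpin in order along the locus. Points show M2, M6 and FT2 and the grey band spans the other 12 tissue samples, with the dashed line at the level. M2 rises above the band at scattered positions, most at miR-382 (56.1 times the level), miR-376c and miR-329, while FT2 stands out at miR-127.

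**Figure D4:**
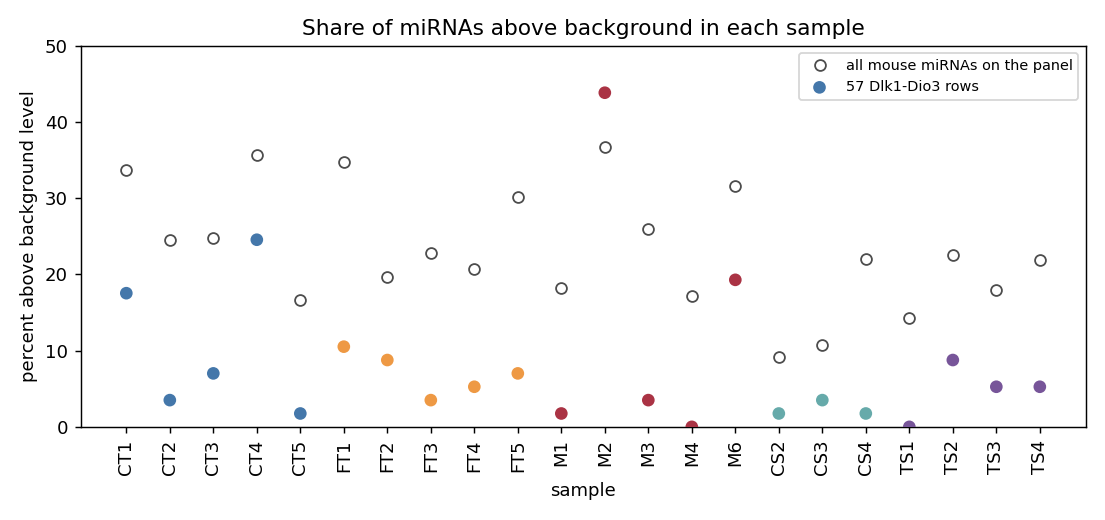
Percent of miRNAs above the background level in each of the 22 samples, for the 57 cluster rows (filled) and all mouse miRNAs of the panel (open). The filled point is below the open one in every sample except M2 (43.9% against 36.7%).

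FT was compared with CT to ask whether the cluster changed in the induced tube. Over all mouse miRNAs tested, 1 (0.177%) passed the threshold of 0.05 by edgeR's quasi-likelihood test with Benjamini-Hochberg adjustment, and 0 of the 57 members did. The unadjusted p of 1 member (1.75%) was below 0.05, against 41 of all miRNAs (7.24%). After adjustment DESeq2, limma and the methods' t-test also called 0 members. Unadjusted, the number was 11 members with TMM (1 higher in FT), 11 with median scaling (9 higher) and 9 with DESeq2 (0 higher), or 19.3%, 19.3% and 15.8%, against 16.4%, 23.9% and 17.1% of all miRNAs. By the methods' t-test it was 2 members (3.51%, 1 higher in FT), against 2.30% of all miRNAs. The median log2 fold change of the members was 0.10, beside 0.15 over all miRNAs, with a range from −0.85 to 2.97, and 33 members lay above 0. At the upper end, miR-127 had normalized counts of 126.1 ± 229 (SD, n = 5) in FT against 16.1 ± 7.60 (SD, n = 5) in CT, and its log2 fold change was 2.97 (standard error, SE, 0.850, adjusted p = 0.112 by edgeR). FT2 decided this value, which was 0.50 when that sample was left out, and without FT3 or FT5 miR-127 was called. All 5 CT counts were below the level, so the size of this fold change is uncertain, and it reached 9.90 when negative controls were subtracted. miR-382 had one of 1.03 (SE 0.604, adjusted p = 0.759 by edgeR), and without FT2 it was −0.13.

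The study lists miR-495 and miR-432 for the induced tube. miR-495 had 8, 19, 22, 18 and 5 counts in CT1 to CT5 and 48, 11, 10, 16 and 28 in FT1 to FT5. It exceeded the level in FT1 alone of these 10 samples. miR-432 had 19, 45, 27, 34 and 19 counts in CT1 to CT5 and 21, 10, 8, 9 and 31 in FT1 to FT5. It exceeded the level in CT4 alone, so both comparisons are between counts that mostly could not be told from background, and the size of either difference is uncertain. In M1, M2, M3, M4 and M6 miR-495 had 7, 67, 3, 8 and 29 counts and miR-432 had 18, 15, 8, 8 and 26. In M2 miR-495 exceeded the level and miR-432 did not.

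Between M and CT, 82 of all miRNAs (14.5%) passed the threshold by edgeR, and 1 of 57 members did, miR-540-3p. Its counts were 4, 11, 4, 4 and 4 in CT1 to CT5 and 17, 18, 7, 9 and 6 in M1, M2, M3, M4 and M6. The groups overlapped, and every count was below the background level of its sample. In normalized counts miR-540-3p was 21.5 ± 15.04 (SD, n = 5) in M against 5.58 ± 2.64 (SD, n = 5) in CT, with 4 of 5 M samples above every CT sample. Its log2 fold change was 1.91 (SE 0.597, adjusted p = 0.0419 by edgeR, from 0.0013 to 0.148 over the alternatives). In FT1 to FT5 its counts were 9, 9, 6, 9 and 3. The level of miR-540-3p in tissue could thus not be told from background, and the call was lost when any one of CT1, CT2, CT3, CT4, M1, M3 or M4 was left out.

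With miR-540-3p included, 13 members (22.8%) had an unadjusted p below 0.05 in M against CT, 11 of them higher in M, against 160 of all miRNAs (28.3%). The median log2 fold change was 0.38 over the members and 0.29 over all miRNAs, with a range from −1.15 to 2.43, and 32 members lay above 0. Without M2 the median of the members was 0.09, and that of all miRNAs 0.37. miR-382 had the largest log2 fold change of the members, with normalized counts of 258 ± 435 (SD, n = 5) in M against 48.4 ± 12.9 (SD, n = 5) in CT, a value of 2.43 (SE 0.83, adjusted p = 0.0565 by edgeR), which was 0.49 without M2. Its adjusted p lay between 0.00697 and 0.534 across the alternatives, and it passed the threshold with TMM, median scaling and DESeq2 and without M1, M3, M4 or M6. miR-127 was at 1.71 (SE 0.576, adjusted p = 0.0533 by edgeR), and 0.79 without M2. Its adjusted p ranged from 0.0158 to 0.311, and it passed with TMM, miR-425 scaling, median scaling, DESeq2, a minimum mean count of 20 and subtracted controls, and without CT5, M1 or M6. All 5 CT counts of miR-127 were below the level, so its fold change is uncertain in size. miR-376c was at 1.49 (SE 0.626, adjusted p = 0.128 by edgeR) and miR-329 at 1.45 (SE 0.575, adjusted p = 0.104 by edgeR), and without M2 they were at 0.29 and 0.51. The number of members called moved with the method more than with any sample. TMM gave 13 members (22.8%), of which 6 were higher in M, against 26.7% of all miRNAs. Median scaling gave 18 (31.6%, against 35.0%), DESeq2 gave 20 (35.1%, against 33.6%), and limma and the methods' t-test gave 0. The shares by TMM, median scaling and DESeq2 lay near those of all miRNAs. By limma and the methods' t-test 12.4% and 8.30% of all miRNAs were called.

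M was also compared with FT, to see whether the cluster differed between tumors and induced tubes. Over all miRNAs, 9 (1.59%) passed the threshold by edgeR and 0 of 57 members did, with 1 member (1.75%) at an unadjusted p below 0.05, against 47 of all miRNAs (8.30%). DESeq2, which called 39 miRNAs, limma and the methods' t-test also called 0 members. The median log2 fold change was 0.09 over the members and 0.10 over all miRNAs. miR-376c had the largest value among the members, 1.56 (SE 0.690, adjusted p = 0.441 by edgeR), and 0.34 without M2. miR-382 was at 1.39 (SE 0.915, adjusted p = 0.927 by edgeR), and its direction turned without M2, to −0.58. This comparison shares the M samples with the one above, so its values are not independent of them.

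In plasma, TS was compared with CS. By edgeR 0 of all miRNAs tested (0%) and 0 of 57 members passed the threshold, while 42 miRNAs (7.42%) and 4 members (7.02%) had an unadjusted p below 0.05. DESeq2 called 13 miRNAs and 0 members, and limma and the methods' t-test 0. miR-376a, a target of A-to-I editing in brain, had 86, 60 and 34 counts in CS2, CS3 and CS4 and 29, 41, 86 and 63 in TS1 to TS4. It exceeded the level in 2 of 3 CS and 3 of 4 TS samples, and the groups overlapped. Its log2 fold change was −1.80 (SE 0.840, adjusted p = 0.542 by edgeR) on normalized counts of 69.5 ± 61.5 (SD, n = 4) in TS and 244 ± 216 (SD, n = 3) in CS.

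The size of that difference depended on the scaling, and over all alternatives its value ranged from −2.62 to −0.39. CS2 and CS3 had the lowest total counts in plasma, 36639 and 18350, and the normalized counts of miR-376a were 273 and 443 there, against 14.1 in CS4. Over all miRNAs the median log2 fold change was −0.89, beside −1.08 over the members, and it was −0.05 with TMM and 0.24 with median scaling. miR-136 had 38, 36 and 52 counts in CS2, CS3 and CS4 and 20, 57, 61 and 36 in TS1 to TS4, exceeding the level in 2 of 3 CS and 3 of 4 TS samples. In counts its groups overlapped widely, and its log2 fold change was −1.26 (SE 0.844, adjusted p = 0.570 by edgeR). Under median scaling it was 0.07.

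In plasma, 3 members exceeded the level in TS samples alone, and the same share over all miRNAs was not counted. TS had more samples than CS. Of all miRNAs, 9.19% exceeded the level in CS2, 10.8% in CS3 and 22.1% in CS4. In TS samples the share was 14.3% (TS1) to 22.6% (TS2). miR-329 did so in TS2, with 30 counts over a level of 29.4. miR-382 had 5, 7 and 31 counts in CS2, CS3 and CS4 and 19, 50, 51 and 11 in TS1 to TS4, above the level in TS2 and TS3. miR-540-3p, below the level in all tissue samples, had 5, 4 and 42 counts in CS2, CS3 and CS4 and 8, 30, 20 and 46 in TS1 to TS4, above the level in TS2 and TS4. CS4 had 42 counts of miR-540-3p under a level of 48.4, more than TS2, so the deposited counts of the groups overlapped for both miRNAs. miR-127, at 226 counts in FT2, had 4 counts in TS1, the plasma of the same mouse, which is below the level of 37.0.

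Set beside other miRNAs, the cluster was not alone in lying near background. The Sfmbt2 intron cluster, another large miRNA cluster of the mouse genome, had 2 of 33 rows above background in tissue and 1 in plasma, with a median log2 ratio to the level of −1.61 in tissue. The mesenchymal miR-199a arms and miR-214 had 2 of 3 above background in tissue with a median of 2.98. Of 6 further miRNAs of the Dlk1-Dio3 locus outside the rule (miR-493, miR-654-3p, miR-654-5p, miR-1188, miR-1193 and miR-1197), 0 were above background in tissue or plasma, and in M2 only miR-1193 exceeded the level, with 23 counts. None of these differences was tested.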

How the data were processed

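Values were the barcode counts deposited by the authors, whole numbers for 626 probes in 22 samples (15 tissue, 7 plasma). Per the methods no background was subtracted, and whether a correction to control probes was made before deposit is not given in the sources used here. The 566 mouse miRNAs were tested and the 60 other probes, with 11.8% to 49.7% of counts in tissue and 19.7% to 84.5% in plasma, were not. Counts were scaled to the geometric mean of the 100 (tissue) or 30 (plasma) most abundant miRNAs, as in the study, and these geometric means served as library sizes in edgeR 4.0.16 (quasi-likelihood test, R 4.3.3, no filter, Benjamini-Hochberg over 566 miRNAs, threshold 0.05). DESeq2 1.42.0, limma 3.58.1 (pseudocount 1), the methods' t-test, other scalings, a minimum mean count of 20, a joint fit, replicate blocks and omission of each sample were alternatives. Background levels of 3 SD and from ligation controls were also tried. Subtraction of negative controls was chosen after seeing the data. The fits were tested on simulated data.

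All 57 members were taken. Those above background or past the threshold, miR-495 and miR-432 are given by sample, with others seen to be high. Brca genotypes came from the study's sample table, and the other engineered alleles are not reported here. The members, lists and tests were chosen with earlier results of these data known. M5 and CS1 were not analysed here.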

Additional observations from a re-analysis of the deposited data

Results flagged for a closer look

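In groups of 4 or 5 samples, 3 of 40 tests over 10 members found a sample far from the rest on the log2 scale, where chance gives about 1 in 20. miR-136 was low in M3, with 22 normalized counts (8 counts), at a gap of 0.753 of the log2 range of M. miR-376c was high in CT1, with 41.5 normalized counts (38 counts), at a gap of 0.751 of the log2 range of CT. miR-432 was low in FT1, with 7.33 normalized counts (21 counts), at a gap of 0.712 of the log2 range of FT. The count of miR-136 in M3 and that of miR-432 in FT1 were below the background level of those samples. On linear normalized counts the same rule marked 12 cases, 6 of them in M2 and 3 in FT2. The widest gap was for miR-127 in FT2 (535 normalized counts, 0.941 of the linear range). Several of the 10 members were named because they were seen to be high in M2 or FT2. The cases in those samples therefore follow in part from that choice and are no separate evidence. The number of such cases over all miRNAs was not counted.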

How the results depend on the processing

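Of the alternative fold changes of named members, 177 stayed on their side of the threshold with their direction, 20 newly passed it, 11 lost it and 3 reversed. The reversals were miR-382 in FT against CT without FT2 (−0.13, range when leaving out 1 sample −0.13 to 1.28), miR-382 in M against FT without M2 (−0.58, range −0.58 to 2.55) and miR-136 in TS against CS with median scaling (0.071). Members called in FT against CT were 0, or 0 to 1 leaving out 1 sample (miR-127, without FT3 or FT5). Without FT3 and without FT5, 2.12% and 1.77% of all miRNAs were called. In M against CT the 1 call became 13 with TMM, 18 with median scaling and 20 with DESeq2, with shares given above. It was 0 with limma, the methods' t-test or CT, FT and M fitted together, which called 12.4%, 8.30% and 9.19% of all miRNAs. With miR-425 scaling it was 3 (5.26%, against 14.1%), and with negative controls subtracted 3 (5.26%, against 12.9%). With a minimum mean count of 20 it was 2 of 20 members tested (10%, against 36.4% of 253 miRNAs). Leaving out 1 sample it ranged from 0 (without CT1, CT2, CT3 or CT4) to 5 (without M6, 8.77%, against 17.8% of all miRNAs). Without CT1, CT2, CT3 or CT4, from 8.83% to 9.89% of all miRNAs were called. The number of members called was 4 without CT5 (7.02%, against 14.1%) and 2 without M1 (3.51%, against 13.4%). In M against FT it stayed at 0 under every alternative run. Over all miRNAs, calls in M against CT ranged from 47 to 198, with 58 higher and 24 lower by edgeR, 83 and 68 with TMM, 163 and 35 with median scaling and 70 and 10 with miR-425 scaling. In FT against CT they ranged from 0 to 12, in M against FT from 0 to 39, and in TS against CS from 0 to 90. Scaling moved the median log2 fold change of all miRNAs from 0.15 to 0.64 (miR-425) or 0.47 (median) in FT against CT, and from 0.29 to 0.66 or 0.52 in M against CT. The cause of these moves was not tested.

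With the replicate block, members called were 2 in M against CT (3.51%, against 12.4% of all miRNAs). They were 9 in TS against CS (15.8%, against 15.9%, 90 of all miRNAs) and 0 in FT against CT and in M against FT. The sample numbers were not taken as pairs. In the study's sample table, same-numbered FT and M samples differed in Brca genotype, such as FT2 (Brca1 -/-) and M2 (Brca1 -/+). Deviations of same-numbered samples from their group means had correlations from −0.315 to 0.307 (FT and CT) and −0.165 to 0.0711 (M and CT). They were −0.420 to 0.292 (M and FT) and −0.0188 to 0.379 (TS and CS). With so few samples per group these correlations cannot decide whether samples were paired.

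With negative ligation controls as the level, 6 members were above background in tissue, adding miR-369-3p, miR-376a, miR-376c and miR-539, and 3 in plasma, adding miR-539. With a mean plus 3 SD, 1 member was above background in plasma. For both levels the share of all miRNAs was not counted. Most members lay below the level, so at this depth the size of differences in them is uncertain.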
